A study of Bos taurus with 16 samples.

Results

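The genes of the factors that start and elongate protein synthesis were followed in RNA from pools of bovine blastocysts. Members were the loci whose gene name starts with EIF or EEF and a number, apart from EIF4E1B, which gave 64 genes of 22358 loci. The counts came from 16 pools, 2 from each of 8 Holstein cows. Cows 1 to 4 received the control treatment and cows 5 to 8 the methionine-rich treatment, in which the same basal diet was formulated to supply more methionine, from calving until the embryos were collected. All cows of both groups were superovulated with hormones and inseminated, the cows were chosen for the number and quality of their embryos, and the labels give no age. The study's methods describe expanded blastocysts of good quality flushed from the cows, whereas the sample labels call the tissue IVF embryos, and this difference could not be resolved. Pools are written here as C or M with the cow and pool number, so that M8.2 is the pool numbered 2 of cow 8. The question was which of these factors the blastocyst expresses, how evenly it does so, and whether the mother's diet changed them.

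Initiation brings the small ribosomal subunit, the initiator tRNA and the mRNA together. The factor eIF2 carries the initiator tRNA, eIF4F (the cap-binding protein eIF4E, the scaffold eIF4G and the helicase eIF4A) recruits the mRNA, eIF3 holds the assembly on the small subunit, eIF1 and eIF1A guard the choice of the start codon, and eIF5 and eIF5B complete the joining of the subunits. In elongation, eEF1A delivers charged tRNAs, the eEF1B subunits recharge it with GTP, and eEF2 moves the ribosome along. Cells set the rate of initiation through the eIF2 kinases and through proteins that bind eIF4E, and amino acid supply reaches both of these controls. In the early embryo these genes are known as part of what is switched on when the embryonic genome takes over from the maternal RNA.

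The total count was between 5624126 and 7826542 in 15 pools and 1745048 in C3.2, which the study left out and which is left out here unless named. Values are counts per 1000000 counts of the pool (CPM), so that 1 pool's floor of 3 counts lay between 0.383 and 0.533 CPM and at 1.72 CPM in C3.2. Of 16 blastocyst markers 14 were in the files and 10 had a mean of at least 10 CPM, with a median of 3390 CPM for the keratin KRT18 and 660 CPM for GATA2, while SOX17 was at 0 in every pool. Leukocyte markers (17 of 18 in the files, CD3E and CD2 at 0 in every pool) summed to 2678 CPM in C2.1. The sum was at most 63.9 CPM in the other control pools and 60.4 CPM in the methionine-rich pools. Of the 17, 5 had a mean of at least 10 CPM. LAPTM5 (6969 counts), NKG7 (2698) and TYROBP (2122) had the most counts in C2.1. PTPRC (18 counts, 48 in M8.1), FCER1G (5, 8 in M8.2), CD48 (200, 323 in M6.2) and RAC2 (46, 139 in C2.2) were higher in other pools. Of 14 cumulus and reproductive tract markers, all were in the files and their sum lay between 26.1 and 85.2 CPM. In bulk pools, fewer cells of a type and less RNA per cell cannot be told apart.

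The 64 genes together took 26429 ± 2834 CPM (SD, n = 15 pools), or between 2.32% and 3.19% of the counts of a pool. The sum was 26560 ± 2869 CPM in the control treatment (n = 7, from 23198 to 31908) and 26313 ± 2996 CPM in the methionine-rich treatment (n = 8, from 23395 to 30489). The 2 ranges overlapped almost completely. The 5 genes EEF1D, EIF4A1, EEF2, EEF1B2 and EIF5 held 56.1% of these CPM, and EEF1D alone held 18.5%. Transcript lengths were not at hand, and the number of reads can depend on length and on the 3′ weighting of the amplified RNA. Such shares therefore say where the reads fell and do not rank the genes by molecules.

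**Figure D1:**
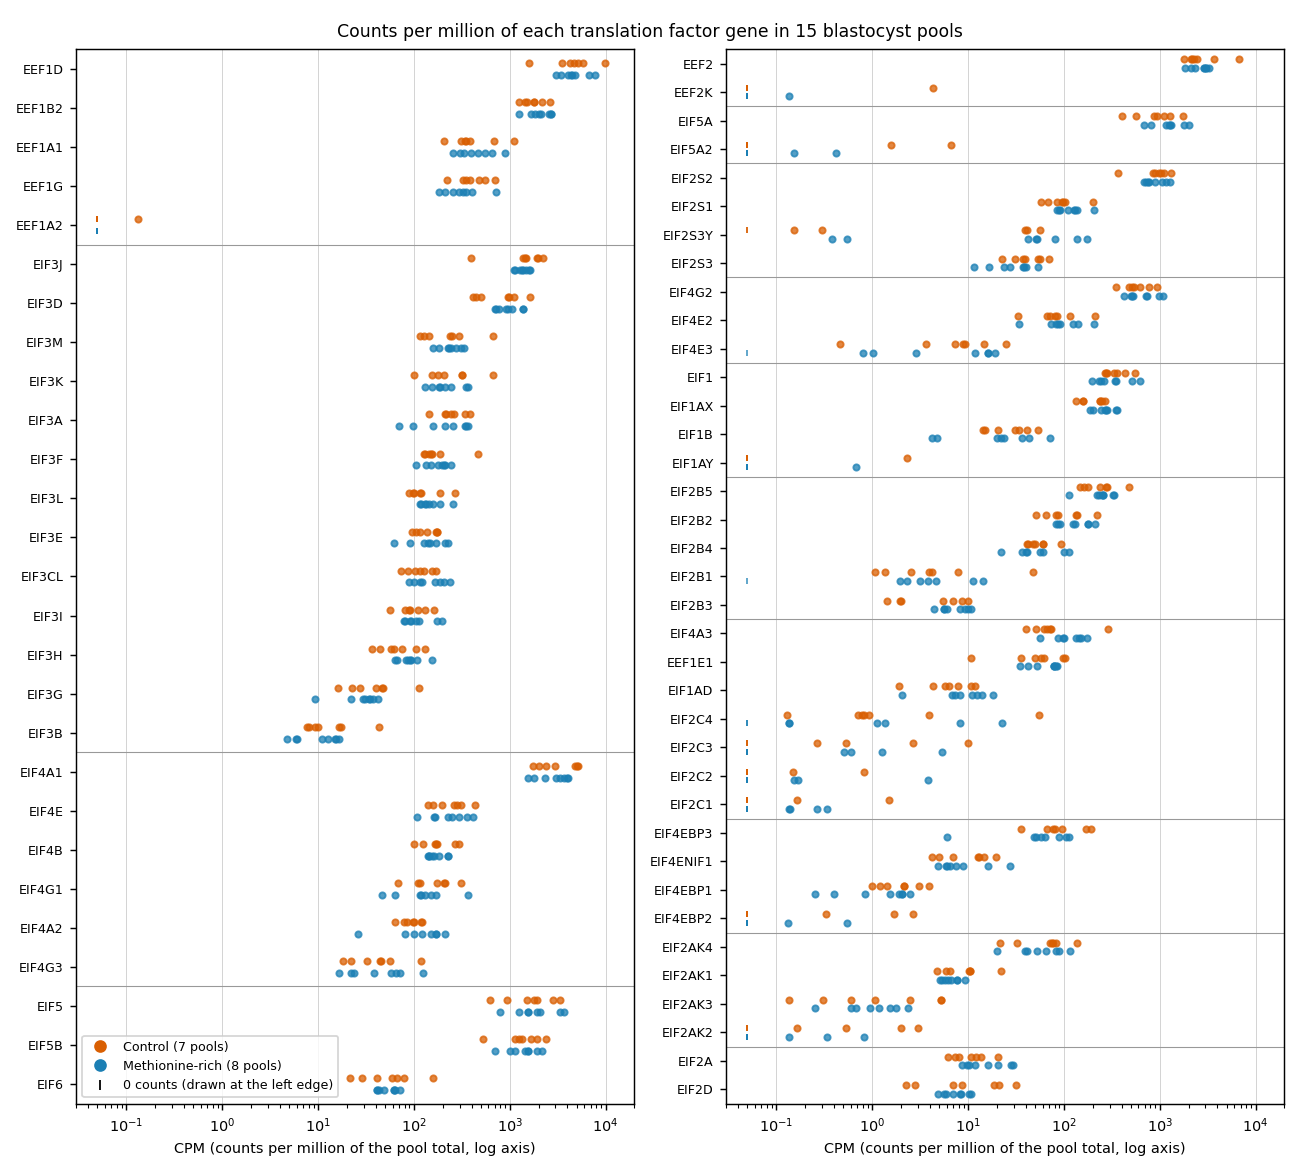
CPM of each of the 64 genes (vertical) in 15 pools on a log axis, with control pools in orange and methionine-rich pools in blue. Grey lines separate the complexes, and ticks at the left edge stand for pools with 0 counts. Control and methionine-rich points are interleaved for most genes, and a group of genes such as EEF1A2 and EEF2K had no counts in most pools.

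Among the elongation factors, the eEF1 genes took 29.2% and eEF2 with its kinase 10.8% of the summed CPM. EEF1D, a subunit of the exchange factor eEF1B, ranged from 1586 CPM in C4.2 over a median of 4428 to 9894 CPM in C2.2. EEF1B2, another subunit of that exchange factor, was among the steadiest of all, from 1260 to 2720 CPM with a median of 1838. EEF1G, the remaining subunit, lay between 184 and 718 CPM. EEF1A1, which carries the tRNA, ranged from 208 to 1104 CPM with a median of 383. Many processed copies of this gene exist in mammalian genomes and reads that map to several of them could have been lost, so its level is uncertain. Its tissue-specific paralog EEF1A2, known from muscle and brain, had 1 count in all 15 pools, so that EEF1A1 held at least 99.96% of the reads of the pair in every pool. EEF2 ranged from 1778 to 6722 CPM with a median of 2444, and the kinase that inactivates its product, EEF2K, had 25 counts in all, 24 of them in C2.1.

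The 13 eIF3 genes took 15.1% of the summed CPM. EIF3J, a loosely bound subunit, ranged from 391 to 2209 CPM, with C4.2 lowest and the other 14 pools at 1112 CPM or more. EIF3B, a scaffold subunit that the core of eIF3 cannot do without, ranged from 4.73 to 43.4 CPM with a median of 11.1. The reads of the eIF3 subunits were thus far from equal, although the assembled complex holds each subunit once. The files name the c subunit EIF3CL, for which the RefSeq gene table lists EIF3C as another name, and it ranged from 74.0 to 238 CPM. EIF3A, the largest subunit, ranged from 69.5 CPM in M8.2 to 381 CPM in C4.2. EIF3D, a subunit known to bind the cap of some mRNAs, ranged from 416 to 1628 CPM. The related pair EIF3F and EIF3H ranged from 107 to 465 CPM and from 36.8 to 154 CPM. The small subunits EIF3K and EIF3M both reached about the same highest value, 670 CPM of EIF3K in C2.2 and 669 CPM of EIF3M in C4.2, from lowest values of 102 and 117 CPM. EIF3E, EIF3I and EIF3L stayed between 56.9 CPM (EIF3I in C2.1) and 271 CPM (EIF3L in C4.2) in all 15 pools.

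The 6 genes of eIF4F and its cofactors took 14.9%. EIF4A1, the helicase, ranged from 1537 CPM in M5.1 over a median of 3054 to 5139 CPM in C2.1, and its paralog EIF4A2 from 25.9 to 210 CPM. EIF4A1 held 96.0% ± 2.3 (SD, n = 15) of the reads of this pair, never under 91.5%. EIF4E, the cap-binding protein, ranged from 108 to 433 CPM and held 68.8% ± 13.4 of the reads of its family, EIF4E2 held 28.4% ± 12.8, and EIF4E3 held 2.79% ± 2.96. The order turned in C4.2, where EIF4E2 held 55.0% and EIF4E 41.2%. EIF4G2, a relative of the scaffold that does not bind eIF4E, held 76.2% ± 6.3 of the eIF4G reads, EIF4G1 18.1% ± 6.3 and EIF4G3 5.69% ± 2.60. Of the cofactors, EIF4B, which stimulates the helicase, had a highest value of 296 CPM, in C2.2, and a median of 167.

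The eIF5, eIF5B and eIF6 genes took 13.1%. EIF5, which makes eIF2 release its GTP at the start codon, ranged from 624 to 3673 CPM with a median of 1795. EIF5B, the joining GTPase, ranged from 525 to 2381 CPM, and EIF6, which keeps the large subunit apart from the small one, from 21.5 to 160 CPM. EIF5A, which helps ribosomes past difficult stretches and carries the modified residue hypusine, ranged from 402 to 2014 CPM. It held 99.96% of the reads of its pair, and EIF5A2 had 53 counts, 37 of them in C2.1.

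The genes of eIF2 took 4.23%, led by EIF2S2, the beta subunit, with 366 to 1304 CPM. EIF2S1, the alpha subunit whose phosphorylation slows initiation, ranged from 58.3 to 208 CPM. The gamma subunit has an X-linked gene, EIF2S3, and a Y-linked one, EIF2S3Y. For the exchange factor eIF2B, which reloads eIF2 with GTP, EIF2B5 ranged from 113 to 474 CPM and EIF2B3 from 1.42 to 10.8 CPM. Its other subunit genes EIF2B2 and EIF2B4 ranged from 51.4 to 223 CPM and from 22.1 to 112 CPM. EIF2A and EIF2D, whose products can bring initiator tRNA to the ribosome without eIF2, ranged from 6.20 to 29.6 CPM and from 2.24 to 32.0 CPM. EIF1 ranged from 196 to 620 CPM and held 92.7% ± 2.9 of the reads shared with EIF1B, which ranged from 4.19 to 71.9 CPM. EIF1AX, the X-linked gene of eIF1A, was another of the steadiest genes, from 136 to 356 CPM.

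In each set of regulators, 1 gene had most of the reads. EIF4EBP3, a repressor that binds eIF4E, held 96.1% ± 6.1 of the reads of the 3 binding proteins and ranged from 6.0 CPM in M6.1 over a median of 76.2 to 190 CPM in C2.2. EIF4EBP1 stayed between 0.256 and 3.96 CPM, and EIF4EBP2 had 39 counts in all. EIF4ENIF1, which carries eIF4E into the nucleus, ranged from 4.22 to 27.2 CPM. Of the kinases that phosphorylate eIF2, EIF2AK4 (GCN2, the sensor of uncharged tRNA) held 84.3% ± 9.6 of the reads and ranged from 20.1 to 139 CPM. The kinase EIF2AK1 (HRI, which senses heme) held 12.0% ± 5.9 and EIF2AK3 (PERK, of the endoplasmic reticulum) 3.24% ± 4.59. EIF2AK2 (PKR, the sensor of double-stranded RNA) had 44 counts, 17 of them in C2.1.

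Several names that match the rule belong to proteins with other functions. EIF2C1 to EIF2C4 are the older names of the Argonaute genes, and among them EIF2C4 had 672 counts, 411 of them in C3.1. The other 3 had 137 counts (EIF2C3), 37 counts (EIF2C2) and 18 counts (EIF2C1). EIF4A3, a helicase of the exon junction complex, ranged from 40.8 to 285 CPM. EEF1E1, a part of the complex of tRNA synthetases, ranged from 10.8 CPM in C3.1 to 102 CPM in C1.2, and EIF1AD from 1.93 to 18.2 CPM. The 8 genes with too few counts to be tested were EIF5A2, EIF2AK2, EEF1A2, EIF2C2, EEF2K, EIF4EBP2, EIF2C1 and EIF1AY. In 4 of these (EEF2K, EIF5A2, EIF2AK2 and EIF1AY) C2.1, the pool with the highest leukocyte marker sum, held the most counts. For EIF2AK2 these were 17 counts, beside 13 in C2.2. How often other untested loci have their most counts in C2.1 was not worked out. The part of leukocyte RNA in the counts of these 4 genes was not tested.

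The Y-linked gene EIF2S3Y separated the pools into 2 sets. It had between 223 and 1270 counts (39.7 to 173 CPM) in 9 pools, C1.1, C2.1, C4.2, M5.1, M5.2, M6.1, M6.2, M7.2 and M8.1. It had between 0 and 4 counts in the other 6, C1.2, C2.2, C3.1, C4.1, M7.1 and M8.2. A count of 0, as in C3.1, allows up to 0.404 CPM. The Y-linked splicing gene ZRSR2Y, looked up after these values were seen, had 1 to 6 counts in the same 6 pools and 201 to 1784 counts in the 9 others. Of the other Y-linked genes looked up with it, UTY had 0 counts in the 6 pools and 3 to 63 in the 9 others. DDX3Y, USP9Y, ZFY and TSPY were at 0 in the 6 pools and also in some of the 9. SRY was at 0 in every pool. Y-linked transcripts were thus found in 3 of 7 control and 6 of 8 methionine-rich pools. By the study's account most methionine-rich pools held more blastocysts than any control pool, and the part of this in the imbalance was not tested. The pool left out, C3.2, had 19 counts of EIF2S3Y and 24 of ZRSR2Y. Pools of both kinds came from the same cow in cows 1, 2, 4, 7 and 8.

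EIF2S3, the X-linked counterpart, was read in every pool, with 83 to 415 counts. It lay between 16.7 and 55.9 CPM in the 6 pools with 0 to 4 counts of EIF2S3Y and between 11.6 and 70.4 CPM in the 9 others, and these ranges overlapped. EIF2S3Y held 92.2% of the reads of the pair in M8.1 and none in C3.1 and C4.1. The 2 genes are near copies, so the split of reads between them may not be exact. The other Y-linked member, EIF1AY, had 13 counts in C2.1, 4 counts in M6.2 and none elsewhere, against 822 to 2783 counts of EIF1AX, so a pool with EIF2S3Y did not as a rule have EIF1AY. XIST, the RNA that coats the inactive X chromosome, was found at 5.01 CPM in C4.2 and between 52.0 and 1152 CPM in the other 14 pools.

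**Figure D2:**
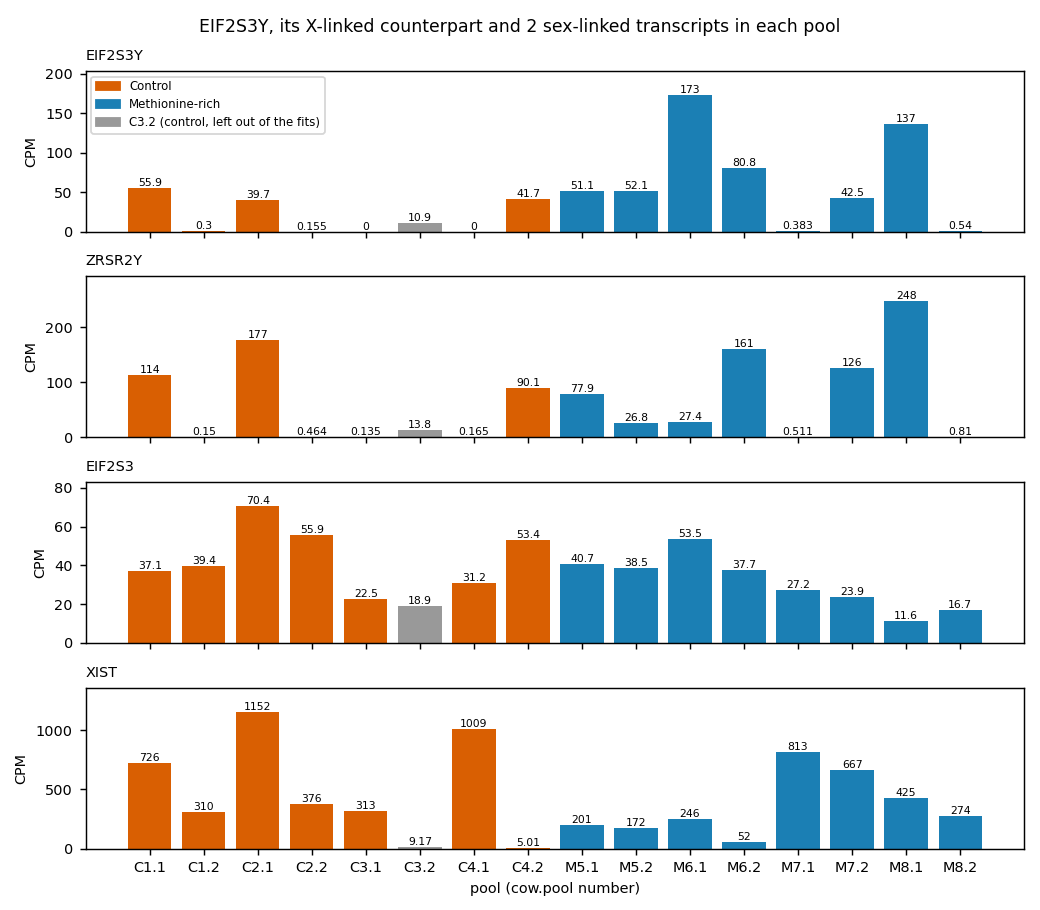
CPM of EIF2S3Y, ZRSR2Y, EIF2S3 and XIST in each of the 16 pools (bars, linear axes from 0), with control pools in orange, methionine-rich pools in blue and C3.2 in grey. EIF2S3Y and ZRSR2Y are near 0 in the same 6 pools, whereas EIF2S3 is present in all, and XIST is at 5.01 CPM in C4.2.

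The methionine-rich diet was then compared with the control diet. None of the 56 genes tested was differentially expressed by the exact test of edgeR at an FDR under 0.10 with at least a 2-fold difference, a rule that called 1.05% of the 10519 loci tested. At an unadjusted p under 0.05, 0 of the 56 passed by that test, by edgeR's quasi-likelihood test, by DESeq2 and by limma with voom (which took the cow as random), where 8.54%, 8.64%, 7.42% and 4% of all loci did. The smallest FDR among the 56 was 0.828. The log2 fold change, methionine-rich over control, was positive for 23 and negative for 33, with a median of -0.07, beside -0.05 over all loci tested. The median absolute log2 fold change was 0.23, beside 0.44 over all loci, and 52 of the 56 (92.9%) stayed within 2-fold, beside 75.3% of all loci. The factors had a higher median level (113 CPM, beside 11.6 CPM), and fold changes scatter more at low counts. Among genes with a mean of at least 10 CPM the median absolute value was 0.20 for 47 factors and 0.28 for 5576 loci, and 97.9% and 91.9% stayed within 2-fold. This floor does not match levels, and the part of abundance in the smaller fold changes was not tested. In no gene did the 4 cows of one treatment lie all above the 4 of the other, a separation found in 2.21% of loci. The pools of a cow are not independent, so the p-values of the exact test, the quasi-likelihood test and DESeq2 measure the spread between pools. Of these fits only that with voom took the cow into account.

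**Figure D3:**
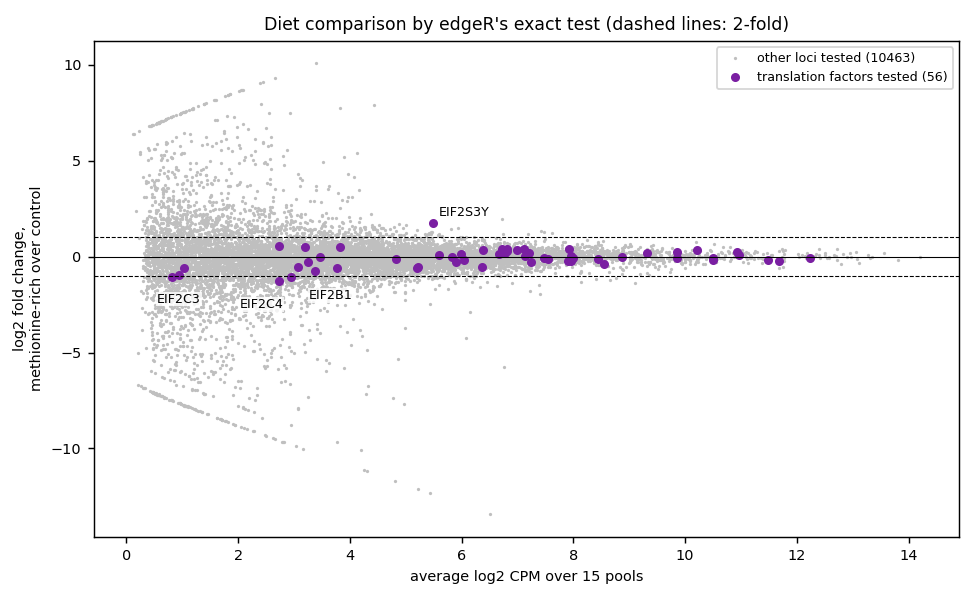
Log2 fold change, methionine-rich over control, against the average log2 CPM of each locus over 15 pools, for 10463 other loci (grey) and 56 translation factors (purple), with dashed lines at 2-fold. The factors lie close to 0 except for EIF2S3Y above, and EIF2C4, EIF2B1 and EIF2C3 below.

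The 10 genes with the smallest p-values were spread over most of the complexes. EIF2S3Y had the smallest, with 0 to 55.9 CPM (median 0.300) in the control pools and 0.383 to 173 CPM (median 51.6) in the methionine-rich pools, a log2 fold change of 1.73 (exact test, p = 0.145, FDR = 0.828). The value was 3.70 by limma with voom and 1.23 without cow 6. The pools with these reads were more numerous in the methionine-rich treatment, as given above, and the part of this imbalance in the value was not tested. EIF2S3, its X-linked counterpart, was at 44.3 ± 16.4 CPM in the control and 31.2 ± 13.9 CPM in the methionine-rich treatment (SD, n = 7 and 8, log2 fold change -0.54, edgeR FDR = 0.893).

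EIF3G, a subunit of eIF3 that binds RNA, was at 44.7 ± 32.0 CPM in the control and 30.1 ± 10.3 CPM in the methionine-rich treatment, a log2 fold change of -0.60 with a 95% interval from -1.34 to 0.18. Fold changes here are those of the edgeR exact test, and the intervals are those of DESeq2 around its own estimate. The control value holds 112 CPM in C4.2, and the other control pools lay between 16.3 and 47.6 CPM. Without C4.2 the log2 fold change of EIF3G was -0.22, and without cow 4 it was -0.087. EIF1AX was at 207 ± 54 and 270 ± 62 CPM, a log2 fold change of 0.39 (interval -0.06 to 0.85). EIF3CL, at 119 ± 35 and 153 ± 55 CPM, had a log2 fold change of 0.38 (interval -0.14 to 0.93). With C3.2 included, the log2 fold changes of EIF1AX and EIF3CL were -0.0020 and -0.081, and C3.2 itself had 444 CPM of EIF1AX and 293 CPM of EIF3CL.

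EIF4EBP3 was at 102 ± 57 CPM in the control and 67.1 ± 35.2 CPM in the methionine-rich treatment, a log2 fold change of -0.56 (interval -1.42 to 0.34). EIF4A2 was at 94.9 ± 21.4 and 129 ± 59 CPM, a log2 fold change of 0.41 (interval -0.24 to 1.06). EEF1G had a log2 fold change of -0.37 and EIF2D one of -0.76. EIF2B1, the alpha subunit of eIF2B, had a log2 fold change of -1.07, with 48.0 CPM in C4.1 and 1.07 to 7.95 CPM in the other control pools. Its log2 fold change was 0.40 without cow 4 (which removes C4.1 and C4.2) and 0.47 by DESeq2 with no pool left out of the 15. DESeq2 ran at its default settings, which can replace outlying counts in groups of this size. Whether the count of C4.1 was replaced was not checked.

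Of the genes with the most reads, EEF1D was at 4973 ± 2555 CPM in the control and 4812 ± 1595 CPM in the methionine-rich treatment (log2 fold change -0.07, interval -0.63 to 0.50). EIF4A1 was at 3438 ± 1498 and 2971 ± 975 CPM (-0.22, interval -0.90 to 0.46). EEF2 was at 3027 ± 1742 and 2682 ± 522 CPM (-0.16, interval -0.70 to 0.43). EEF1B2 was at 1814 ± 473 and 2113 ± 521 CPM (0.21, interval -0.14 to 0.58). EIF5 was at 1853 ± 968 and 2021 ± 1011 CPM (0.09, interval -0.72 to 0.90). For EIF2AK4, the amino acid sensor, the pools lay between 21.6 and 139 CPM in the control and between 20.1 and 117 CPM in the methionine-rich treatment, a log2 fold change of -0.20 (interval -0.95 to 0.57).

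The intervals held 0 for all 56 genes, and for 34 of them the whole interval lay within a 2-fold change in either direction. All 34 had a mean of at least 10 CPM, a level reached by 47 genes. For the other 22, among them all 9 genes of lower mean, these pools left a 2-fold difference in at least 1 direction inside the interval. Each pool entered the DESeq2 fit as its own replicate, with no term for the cow it came from. Like the p-values of the fits without the cow, the intervals thus measure the spread between pools. They can be too narrow for a difference between the cows of each diet, so the 34 do not exclude a 2-fold effect of diet.

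**Figure D4:**
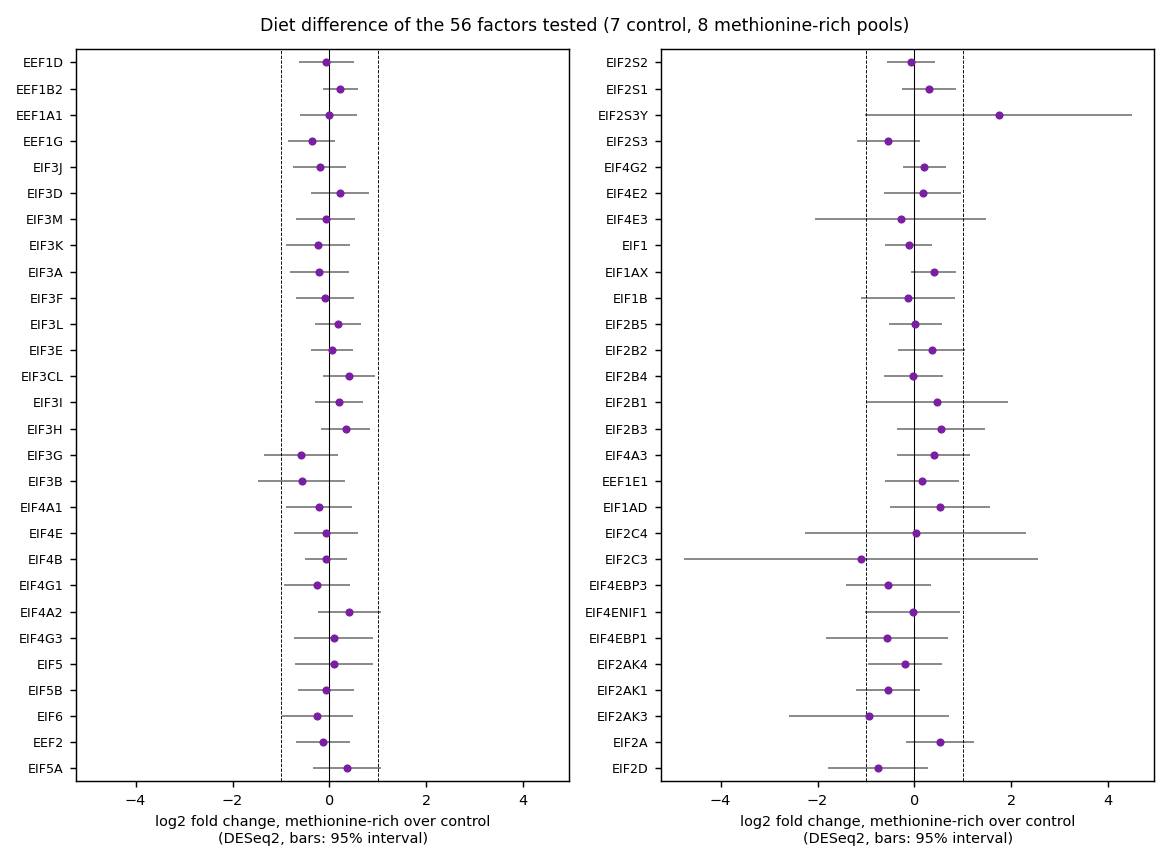
Log2 fold change, methionine-rich over control, of the 56 genes tested (points) with their 95% intervals by DESeq2 (bars), from 7 control and 8 methionine-rich pools, with dashed lines at 2-fold. Every interval crosses 0, and the bars are widest for genes with few counts, such as EIF2C3, and for EIF2S3Y.

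By complex, the log2 fold changes pointed in both directions in most. In eIF3, 6 were positive and 7 negative with a median of -0.10, and none passed the test. The eIF4F genes had 2 positive and 4 negative values (median -0.08). The 3 kinase genes tested and the 3 repressors of eIF4E tested were all negative, with medians of -0.56 in both sets, and none of these 6 passed the test either. The sum of the eIF4E-binding repressors was 116 ± 60 CPM in the control and 79.0 ± 39.3 CPM in the methionine-rich treatment.

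Of 40 other genes of translation and its control (release and recycling factors, poly(A)-binding proteins, mTOR and its partners, and the stress response), 37 were in the files and 33 were tested. None was differentially expressed, 14 had a positive and 19 a negative log2 fold change, and 3 of the 33 had an unadjusted p under 0.05 by the exact test, a share near the 8.54% of all loci. PPP1R15A (GADD34), which directs the phosphatase that reactivates eIF2, had a log2 fold change of -2.81 (FDR = 0.256 by edgeR's exact test), and 180 of its counts, 58.3% of all, were in C1.1. MCTS1, a recycling factor, had a log2 fold change of -2.65 (FDR = 0.291 by the same edgeR test), with 296 counts in C2.1 and 131 in C1.2. MKNK2, a kinase of eIF4E, had 104 counts in C1.2, 1 count each in M8.1 and M8.2 and none in the other 12 pools. In each of the 3 genes, 1 or 2 control pools held most of the counts.

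The spread across pools was smaller for the translation factors than for loci in general. The SD over the 15 pools of log2(CPM + 1) had a median of 0.64 for the 56 genes and 1.0 for all loci tested, and 0.63 against 0.83 among genes with a mean of at least 10 CPM. The 56 genes had a higher median level than all loci tested (113 and 11.6 CPM), and the floor of 10 CPM does not match levels. The part of abundance in the smaller spread was not tested. The steadiest genes were EEF1B2 (SD 0.38), EIF1AX (0.41), EIF4B (0.41), EIF2S2 (0.46) and EIF4G2 (0.47), and the most variable EIF2S3Y (2.98), EIF2C4 (1.76), EIF4E3 (1.53), EIF2B1 (1.34) and EIF4EBP3 (1.12). EIF4E3, a small member of the cap-binding family, went from 0 in M8.1 to 24.9 CPM in C1.2. The 2 pools of a cow differed by a median of 0.55 on this log2 scale (7 pairs), pools of different cows in the same treatment by 0.62 (42 pairs) and pools of different treatments by 0.62 (56 pairs). The pairs share pools, so these medians are descriptions.

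Single pools stood apart in these genes, in shares near or under those of all loci with a mean of at least 10 CPM. Among the 47 genes with a mean of at least 10 CPM, C3.2 differed from the median of the other pools by 2-fold or more in 29, of which 22 were lower and 7 higher. It had 4.58 CPM of EIF3A, 57.3 CPM of EIF3J and 199 CPM of EEF1B2, all under the lowest of the other 15 pools, and 9415 CPM of EEF1D and 1696 CPM of EIF2S2. The 29 were 61.7% of the factors of that level, beside 77.8% of all 5576 loci of that level in C3.2.

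C4.2 came next, with 19 of the 47 genes at 2-fold or more from the other pools, 13 higher and 6 lower. Among the 15 pools it had the highest EEF2 (6722 CPM), EEF1A1 (1104 CPM), EIF3M (669 CPM), EIF3F (465 CPM), EIF4A3 (285 CPM) and EIF3G (112 CPM). It also had the lowest EEF1D (1586 CPM), EIF3J (391 CPM), EIF5A (402 CPM), EIF2S2 (366 CPM) and EIF5B (525 CPM). The same pool had the highest sum of blastocyst markers, 10066 CPM, against at most 8699 CPM in the other control pools, and the lowest XIST. Its 40.4% of factors matched the 40.2% of all loci at 2-fold or more. By the study's account C4.2, like C4.1 and M8.2, held a single blastocyst. The part of pool size in these values was not tested.

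C2.2 and M5.1, a control and a methionine-rich pool, stood together at the end of the range in several genes, named after their values were seen. They had the 2 highest values of EEF1D (9894 and 7703 CPM), EEF1G (704 and 718 CPM), EIF4G1 (307 and 371 CPM) and EIF4G3 (119 and 124 CPM). The same held for EIF2AK4 (139 and 117 CPM), EIF3K (670 and 365 CPM), EIF2B5 (474 and 337 CPM) and EIF3H (131 and 154 CPM). They had the 2 lowest values of EIF5 (624 and 788 CPM). In other genes they went opposite ways, with EIF4E2 at 33.3 CPM in C2.2 and 123 CPM in M5.1, and EIF2A at 8.05 and 28.1 CPM. C2.2 differed by 2-fold or more in 13 and M5.1 in 12 of the 47 genes (27.7% and 25.5%), beside 30.3% and 24.6% of all loci of that level. These pools also had the 2 highest TMM factors, 1.20 and 1.33, against 0.841 to 1.07 in the others, which means that typical loci had higher CPM there than elsewhere. By the study's account they also had the 2 highest concentrations of amplified RNA. The parts of this scaling and of the RNA concentration in their values were not tested.

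**Figure D5:**
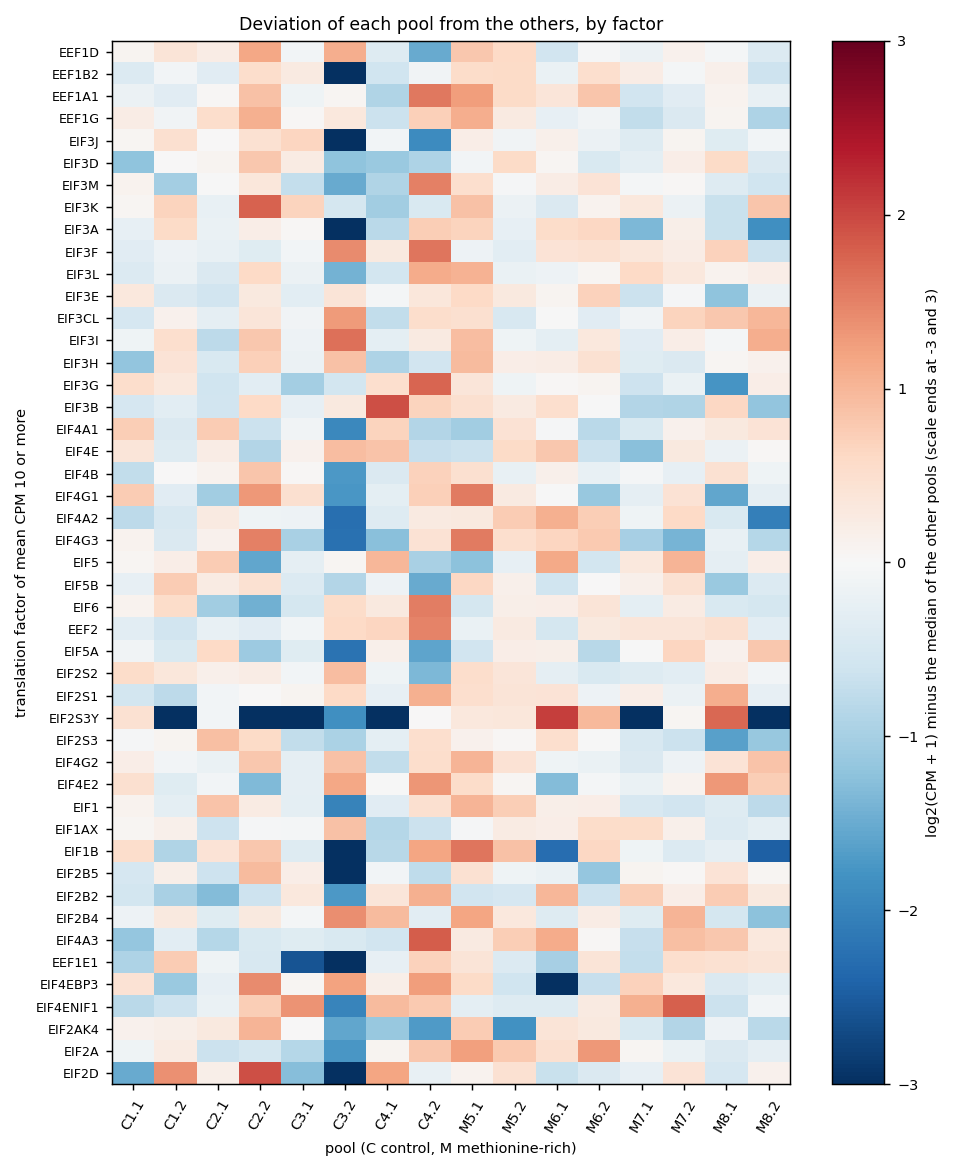
Difference of log2(CPM + 1) in each of the 16 pools from the median of the other pools (colour, red higher and blue lower) for the 47 factors with a mean of at least 10 CPM, ordered by complex. C3.2 and C4.2 have the most strongly coloured columns, with 29 and 19 factors at 2-fold or more. These are 61.7% and 40.4% of the 47, beside 77.8% and 40.2% of all loci of that level. The row of EIF2S3Y is blue in C3.2 and in the 6 pools with 0 to 4 of its reads.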

How the data were processed

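RNA of 16 blastocyst pools was amplified by the authors with a kit that primes at the poly(A) tail, which weights reads towards the 3′ end, and sequenced. By the study's account several methionine-rich pools had a lower RNA quality number than any control pool with a value. The part of RNA quality in the diet comparison was not tested. Per the labels and the study's methods, reads were mapped to bosTau7 with TopHat2 2.0.4, transcripts assembled with Cufflinks 2.0.2, and reads per gene counted with HTSeq. The deposited values are raw counts, in 22552 rows per pool and 22358 loci, each used once. The strand setting is not given in the sources used here.

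CPM is the count over the pool total, not divided by length. RefSeq names matched 59 genes by symbol and 3 by synonym (EIF2C4 and EIF2S3Y did not match), and no sequence was at hand. Loci with a summed CPM of at least 15 over 15 pools were tested in R 4.3.3 with edgeR 4.0.16 (TMM, tagwise dispersion, exact test, Benjamini-Hochberg), called at FDR under 0.1 and 2-fold. DESeq2 1.42.0, at default settings that can replace outlying counts, gave 95% intervals, and limma 3.58.1 and the quasi-likelihood test were alternatives. Fits were tested on simulated data, with a dispersion below the common value of the real counts (1.14) and no pairing of pools within cows. That run checked the code and gives no measure of power or error for these pools. Named genes were the 5 with most reads, the extremes of each complex, the paralogs, the 5 most and 5 least variable, and the 10 smallest p-values, with pools and genes that stood apart named after their values were seen. The members and lists were chosen with earlier results of these data known.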

Additional observations from a re-analysis of the deposited data

Results flagged for a closer look

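In 122 sets of 7 control or 8 methionine-rich pools (complexes and genes with a mean of at least 10 CPM), 17 had a highest or lowest pool whose gap to the next exceeded Dixon's 95% limit. For normally distributed values chance gives about 1 in 20 such sets. The CPM values were not log-transformed, all 17 stood at the high end, and the genes are not independent. That rate need not hold here, so the 17 are a description. Of the 17, 8 were in C4.2.

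In C4.2, EIF4A3 was at 285 CPM (next control pool 73.8), EIF3F at 465 CPM (next 188), EIF3M at 669 CPM (next 299), EIF2S1 at 203 CPM (next 102), EIF3G at 112 CPM (next 47.6), EIF6 at 160 CPM (next 79.3) and EEF2 at 6722 CPM (next 3718), with which the sum of EEF2 and its kinase, also 6722 CPM, went along. In C2.2, the summed eEF1 genes reached 13922 CPM (next 8249), EIF3K 670 CPM (next 315), EIF2B5 474 CPM (next 283) and EIF4G3 119 CPM (next 55.8). In C4.1, EIF2B4 was at 94.5 CPM (next 60.1) and EIF3B at 43.4 CPM (next 17.2). In the methionine-rich treatment, M5.1 stood apart in EIF4G1 (371 CPM, next 170) and EEF1G (718 CPM, next 407), and M8.1 in EIF2S1 (208 CPM, next 138).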

How the results depend on the processing

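None of the factors was called under any of 20 alternatives (test, normalization, filter, pools, cows summed, the cow as random effect, pool number as replicate block, each cow left out), and their median log2 fold change stayed between -0.12 and 0.12. With the block the count was 0 and the median -0.06, and the labels tie the pool numbers to no batch. Over all loci the number called went from 0 (quasi-likelihood test, voom, the block, and the filter of 10 counts in every pool) to 341 (all 16 pools), beside 110. At an unadjusted p under 0.05, at most 1 factor passed in any alternative: EIF4A3 without cow 4 and without C4.2 (the latter alternative chosen after seeing the data), EIF4A2 without cow 8, and EIF2S3Y with cows summed, where 6.91% to 8.58% of all loci passed. The number of factors whose cows did not overlap was 2 without C4.2 (EIF4A3 and EIF2B3, beside 2.42% of all loci), 2 with TMM-normalized CPM (EIF2AK1 and EIF2B3, beside 2.41%), and 0 to 4 with a cow left out (beside 3.9% to 5.28%), against 0. Directions reversed for EIF1AX (-0.0020) and EIF3CL (-0.081) with all 16 pools, and for EIF2B1 by DESeq2 (0.47) and without cow 4 (0.40), with a range of -1.46 to 0.40 over the cows left out. The summed CPM was 21541 without EEF1D. The cause of these shifts was not tested, beyond what leaving out a pool or gene removes by construction. Levels per length were not run, as no lengths were at hand.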
